A study of Mus musculus with 18 samples.

Results

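The genes described here encode the signalling machinery of the Wnt pathway, from the secreted ligands to the genes that the pathway itself switches on. They were chosen by symbol alone, as every gene of the Wnt, Fzd, Sfrp, Dkk and Rspo families on the array together with Lrp5, Lrp6, Axin1, Axin2, Apc, Ctnnb1, Tcf7l1, Tcf7l2, Lef1, Nkd1, Nkd2, Notum, Znrf3, Rnf43, Wif1, Lgr4, Apcdd1 and Sp5. This gave 59 of the 19057 genes with a symbol and 112 of the 45281 probes. Tcf7 was also sought, matched no probe symbol and was not analysed here. Each gene was represented by the probe with the highest mean signal.

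In the canonical branch of the pathway, a Wnt protein binds a Frizzled receptor and a co-receptor of the Lrp family at the cell surface. This stops the destruction complex of Axin, Apc and their kinases from marking beta-catenin for breakdown, and beta-catenin then joins Tcf and Lef factors on DNA. Secreted proteins such as Notum and the Sfrp and Dkk families limit the signal from outside, R-spondins prolong it by removing the ligases Rnf43 and Znrf3, and targets such as Axin2, Nkd1, Sp5 and Notum feed back on it. In the colon the pathway maintains the crypt stem cells, and loss of Apc turns it on without ligand in most colorectal tumours.

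Transcript levels came from 18 bead arrays (Illumina, mouse), with 3 arrays for each combination of mouse label and treatment. The labels 1, 5 and 7 were each read as 1 mouse, although the sex markers given below depart from that in labels 1 and 5. The treatment was either 24 h of a short hairpin RNA (shRNA) directed at Foxd3, a transcription factor gene, or none. All groups shared the strain C57Bl/6, the age of 17 weeks, the tissue label colon and a genotype that includes Fapbl-Cre and Apc2lox14/+. As these names read, they are a Cre driver and a floxed allele of Apc beside a normal one. The labels do not say in which cells the driver acts. In both arms the cells were described as CDCP1+ cells, taken from dissociated primary tumours with antibody-coated MicroBeads (MACS) and kept with Dox. Because the untreated cells carried the same alleles and the same Dox, neither comparison below tests an allele or Dox. Nothing in the labels shows that the arrays within a group are separate cultures, so p-values within and between labels rest on array-to-array spread that may be technical. The comparison across labels took the mean of 3 arrays as 1 profile, 6 in all, with the mouse label as a block.

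Several features of the arrays bear on every value that follows. Foxd3 itself lay between -10.3 and 16.5 and reached detection on 1 of 18 arrays, so its knockdown was not detectable. The labelled tissue was checked against 10 markers of intestinal epithelium, of which mice 1, 5 and 7 showed 2, 1 and 2 on every one of their 6 arrays, and Epcam, an adhesion molecule of epithelia, was detected on 0 of 18 arrays. By the same count, mice 1, 5 and 7 showed 8, 4 and 3 of 10 brown fat markers, 3, 9 and 0 of 9 skeletal muscle markers, and 2, 2 and 9 of 10 liver markers. The sex of the cells also departed from 1 animal per label, since Xist (the RNA of the inactive X chromosome) had signals above 300 on the shFoxd3 arrays of mice 1 and 5 and on array 2 of their untreated cells, while the other untreated arrays of those labels and all arrays of mouse 7 carried Eif2s3y of the Y chromosome. The Sfrp2 change in mouse 1 and the counts of genes that differed between untreated labels are also given without the arrays concerned. Other changes with the shRNA are printed with those 2 arrays included. Differences between mouse labels below are therefore differences between these RNA samples, and cannot be told apart from differences between tissues. In bulk RNA of this kind, fewer cells of a type and less RNA per cell cannot be told apart either.

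Values below are background-subtracted signals, in arbitrary brightness units that can fall below 0, given as mean ± SD over the 3 arrays of a group unless stated. Changes are differences of normalised log2 values with an offset of 16, given with the moderated standard error of limma, and folds are taken on the same scale, so that they understate the folds of dim probes. Where no array of the lower group detected a probe, the fold is a bound, written as "at least", against the lowest signal detected on those arrays. A probe was called detected at a detection p-value below 0.05, and different at a Benjamini-Hochberg adjusted p below 0.05 over all 24817 probes tested. Signals of different genes come from different probes and are not compared with each other.

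Much of the pathway was measurable on these arrays. Of the 59 genes, 40 were detected on at least 3 arrays and tested, and 9 were detected on all 18, namely the ligand Wnt4, the receptors Fzd5 and Fzd7, the secreted Dkk3, the scaffold proteins Axin1 and Axin2, beta-catenin (Ctnnb1), and the nuclear factors Tcf7l1 and Tcf7l2. The number detected on all 6 arrays of a label was 19, 18 and 18 in mice 1, 5 and 7. All 12 receptor genes were tested, as were the 4 genes of beta-catenin and its destruction complex, the 3 nuclear factors and the 4 feedback genes Sp5, Apcdd1, Nkd1 and Nkd2. The ligands and R-spondins were sparser, with 8 of 19 Wnt genes and 2 of 7 genes of the R-spondin axis tested, and 7 of 10 secreted inhibitors. By their brightest probes, a further 15 genes were detected on 0 of 18 arrays and 4 on 1 or 2, and these 19 genes were not tested.

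**Figure D1:**
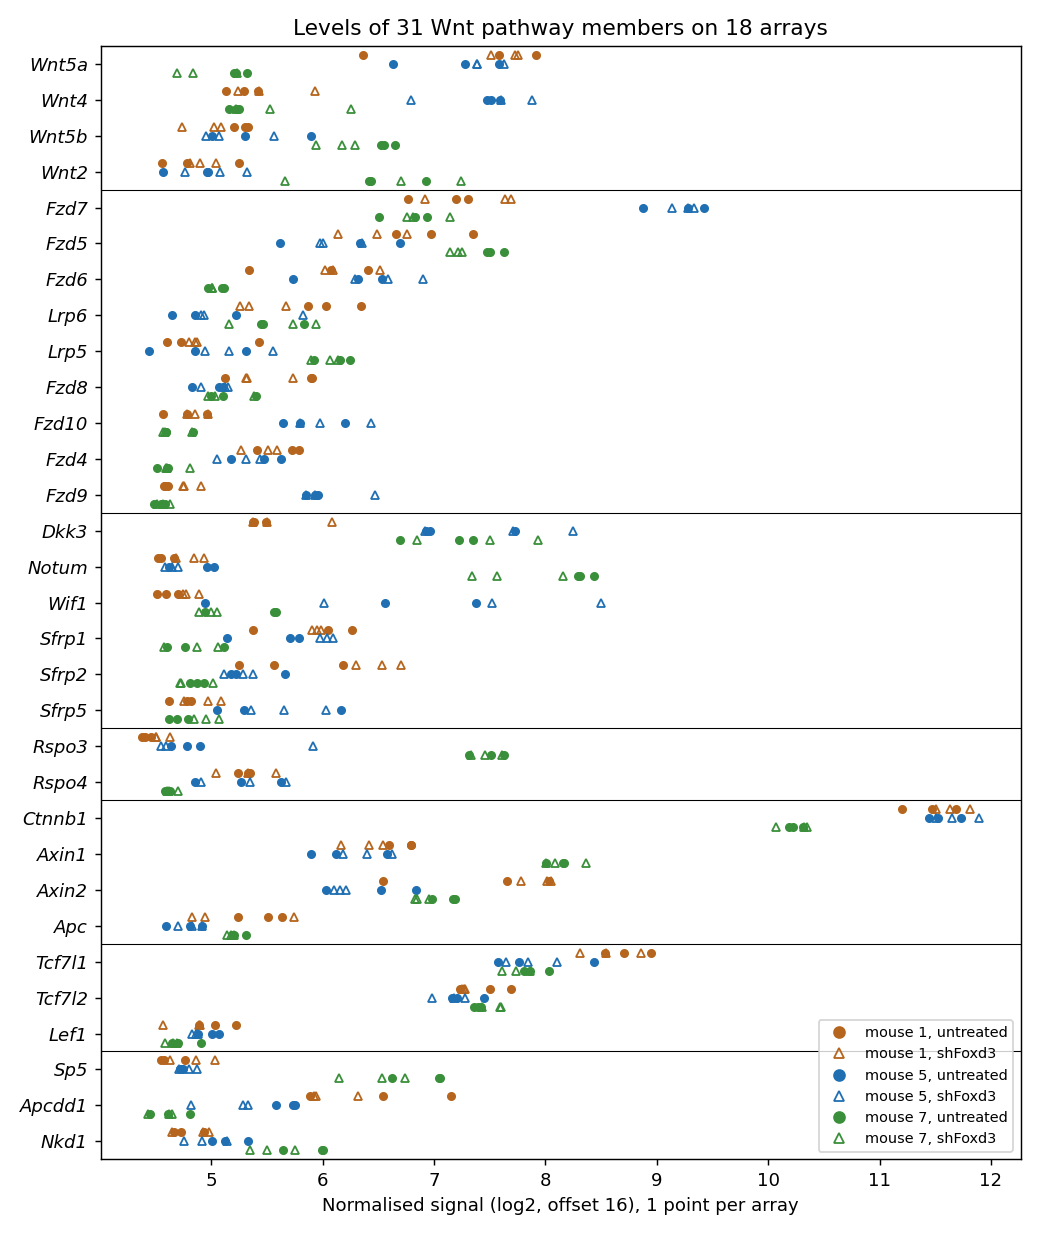
Normalised log2 signal (offset 16) of 31 pathway genes on each of the 18 arrays, filled circles for untreated and open triangles for shFoxd3 arrays, coloured by mouse label and separated by lines into ligands, receptors, secreted inhibitors, R-spondins, beta-catenin and destruction complex, nuclear factors and feedback genes. Within most genes the points group by mouse label rather than by arm, as for Notum, Rspo3, Fzd7 and Wnt4.

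The shRNA arm was compared with the untreated arm. In mice 1 and 5 every shFoxd3 array carried Xist, and most untreated arrays carried Eif2s3y instead. In those labels a change with the shRNA therefore cannot be told apart from a difference between animals, and the comparison across labels includes them. Across the 3 mouse labels, 0 of the 40 pathway genes tested passed the limma test (lowest adjusted p = 0.790), where 0.105% of all probes did. The files held 46 probes whose printed signals or detection p-values departed from the rest of the table, of which none belonged to the genes described here, and with them left out 0 probes passed. At an unadjusted p below 0.05 the count was 5 of 40 (12.5%), against 5.73% of all probes. The median change of the 40 genes was 0.03, and that of all probes was -0.01.

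Within single labels the count was also 0 of 40 in mouse 1 (0.737% of all probes called), 0 of 40 in mouse 5 (0.25%) and 0 of 40 in mouse 7 (0.83%). At an unadjusted p below 0.05 there were 6, 3 and 4 genes, or 15%, 7.5% and 10% of the 40, where all probes gave 9.99%, 10.8% and 9.4%. The lowest adjusted p was 0.0599 for Sfrp2 in mouse 1, 0.218 for Fzd3 in mouse 5 and 0.126 for Notum in mouse 7. Median changes of the 40 genes were 0.09, 0.05 and -0.02 in mice 1, 5 and 7. The normalised values of the arms did not overlap for 10 of 40 genes in mouse 1 (14.1% of all probes), 4 in mouse 5 (12.2%) and 7 in mouse 7 (17.8%). The change had the same sign in all 3 labels for 13 of 40 genes, or 32.5%, against 28.9% of all probes. A test of whether the change differed between labels called 0 of 40 genes (0.218% of all probes). At an unadjusted p below 0.05 it gave 5 genes, or 12.5%, against 10.4% of all probes. Changes of the 40 genes spanned -0.35 to 0.33 across labels, with standard errors from 0.06 to 0.25.

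**Figure D2:**
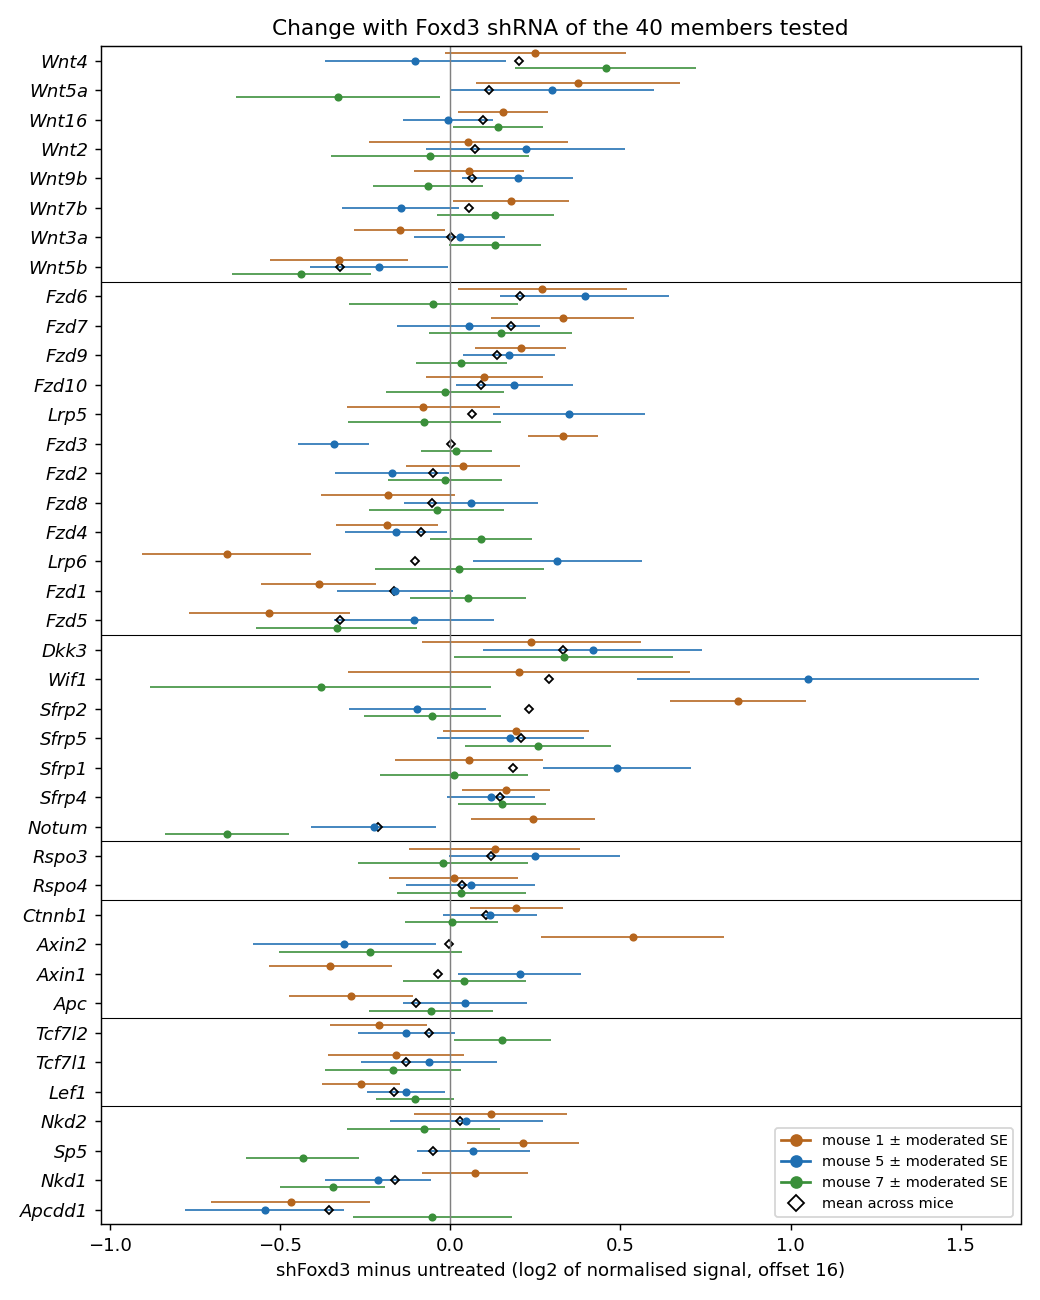
Change with Foxd3 shRNA (shFoxd3 minus untreated, normalised log2 with offset 16) of the 40 pathway genes tested, grouped by role, with points and bars for the change and its moderated standard error in each mouse label and a diamond for the mean across labels. Most intervals reach 0, and the points farthest from it, such as Sfrp2 in mouse 1, Wif1 in mouse 5 and Notum and Lrp6 in 1 label each, are not repeated in the other labels.

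The gene nearest to the threshold was Sfrp2, a secreted Frizzled-related protein that binds Wnt ligands. Its signals in mouse 1 were 100.6, 73.2 and 62.4 on the shFoxd3 arrays and 49.7, 21.9 and 27.8 on the untreated arrays. All shFoxd3 values lay above all untreated values, and the change was 0.85 ± 0.20 (limma adjusted p = 0.0599). In mice 5 and 7 the changes were -0.10 and -0.05, and the test of a difference between labels gave an adjusted p of 0.246. It passed with the array number as a replicate block (limma adjusted p = 0.0446) and with array weights (limma adjusted p = 0.0156). The limma call also turned on single arrays, since the change was 0.64 without untreated array 2 (adjusted p = 0.192), which carried Xist, and 1.10 without untreated array 1 (adjusted p = 0.00554). With untreated array 2 left out, all shFoxd3 arrays carried Xist and all untreated arrays Eif2s3y. The change of 0.64 therefore cannot be told apart from a difference between animals either. Fibroblast markers moved with Sfrp2. The summed signal of 8 such genes was 14998 to 18889 on the shFoxd3 arrays of mouse 1 and 7530.4 to 9577 on the untreated ones. The skeletal muscle sum was 26836 to 84086 against 77.7 to 18804. The part of these cells in the difference was not tested.

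Notum, an extracellular enzyme that inactivates Wnt proteins by removing their lipid, stood out in mouse 7. Its signals there were 196, 299.7 and 153 with the shRNA and 399.8, 385 and 361 without it. Every shFoxd3 array was below every untreated array, with a change of -0.66 ± 0.18 (limma adjusted p = 0.126), and the other 2 Notum probes had changes of -0.49 and -0.56. Without shFoxd3 array 2 the change was -0.89 (limma adjusted p = 0.0131). That array, picked after the values were seen, had the highest normalised value of its arm, 8.16 against 7.34 and 7.57. Leaving it out therefore enlarges the fall, and leaving out either of the others would shrink it. In mouse 1 the signals were near background, at 14.1, 9.63 and 4.10 with the shRNA and 2.36, -2.43 and -4.68 without, so no change could be read there. Sp5, a zinc finger transcription factor and Wnt target, had signals of 69.3, 90.7 and 61.5 with the shRNA and 144, 122 and 88.9 without it in mouse 7. These arms overlapped, and the change was -0.43 ± 0.17 (limma adjusted p = 0.358). Nkd1, which binds Dishevelled and dampens the signal, had a change of -0.35 ± 0.16 in the same label (limma adjusted p = 0.487), again with overlap. Macrophage markers in those arms had a summed signal of 7 genes of 6184 to 12837 with the shRNA and 5110.1 to 6507 without it. These ranges overlapped, and the part of macrophages was not tested.

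The changes that repeated in sign over the 3 labels were small. Wnt5b, a ligand of the branch that acts without beta-catenin, had changes of -0.33, -0.21 and -0.44 in mice 1, 5 and 7 and -0.32 ± 0.11 across them (unadjusted p = 0.0234, limma adjusted p = 0.790). In mouse 7 its signals were 56.4, 54.2 and 49.4 with the shRNA and 94.1, 84.7 and 80.9 without, which did not overlap. Dkk3, a secreted glycoprotein of the Dickkopf family, had changes of 0.24, 0.42 and 0.33, in the opposite direction, but its normalised values overlapped between the arms in all 3 labels. Apcdd1, a membrane protein that binds Wnt and Lrp5, had -0.47, -0.54 and -0.05. Untreated array 2 of mouse 1, which carried Xist, had its highest normalised value there, 7.15 against 5.89 and 6.54 on the other untreated arrays. Fzd5, a Frizzled receptor, had -0.53, -0.11 and -0.33, and the secreted inhibitor Sfrp5 had 0.19, 0.18 and 0.26. These 5 were the genes with an unadjusted p below 0.05 across labels, and all had an adjusted p of 0.790.

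Axin2, the destruction complex scaffold that is also a widely used readout of beta-catenin signalling, showed no common direction. Its signals in mouse 1 were 263, 214 and 186 with the shRNA and 151, 75.4 and 199 without, which overlapped. Untreated array 2 of mouse 1, which carried Xist, was the lowest, at a normalised 6.54 against 7.66 and 8.03 on the other untreated arrays. The normalised values of the arms also overlapped in mouse 5 but not in mouse 7. Its changes were 0.54 ± 0.27, -0.31 ± 0.27 and -0.23 ± 0.27 in mice 1, 5 and 7, and -0.00 ± 0.19 across labels (limma adjusted p = 0.997). Ctnnb1 had changes of 0.19, 0.12 and 0.00, with overlap of the arms in each label. Lrp6, a co-receptor, had signals in mouse 1 of 28.9, 22.4 and 36.4 with the shRNA and 37.6, 63.9 and 43.0 without. Those arms did not overlap (change -0.66 ± 0.25, limma adjusted p = 0.346), whereas the change in mouse 5 was 0.31 ± 0.25. Fzd3, a receptor singled out after its values were seen, had a change of 0.33 ± 0.10 in mouse 1 and -0.34 ± 0.10 in mouse 5, at signals below 24 and with detection on 4 of 18 arrays.

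Most of these genes differed between the mouse labels. In untreated cells, 35 of the 40 genes differed between labels by the limma F-test, where 73.6% of all probes did, and in the shFoxd3 cells 33 of 40, where 71.9% did. A gene detected on the arrays of a single label could pass the filter on dim probes only by differing, so these counts describe the genes and give no more than that. The arms used different arrays, and 31 genes were called in both. Of those 31, the same label was highest in both arms for 30, and the same labels were highest and lowest for 22. The matching shares of all probes were not computed. The same filter bears on both arms, so this agreement describes the genes and is no separate support. Among the 35 genes called in untreated cells, the highest label was mouse 1 for 12, mouse 5 for 14 and mouse 7 for 9.

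By pairs of labels, which share their untreated arrays, 9 genes were higher in mouse 1 than in mouse 5 and 10 were lower (all probes 23.2% and 18.8%). Between mice 1 and 7 the counts were 11 higher in mouse 1 and 9 lower (30.8% and 25.1%), and between mice 5 and 7 they were 19 higher in mouse 5 and 12 lower (32.8% and 30.8%). Without normalisation between arrays the splits became 4 and 13 for mice 1 and 5 and 8 and 10 for mice 1 and 7, with the median of all probes moving from 0.034 to -0.09 and from 0.085 to -0.043. With both untreated arrays that carried Xist left out, the F-test called 34 genes and the pairs 18, 23 and 31. No pathway gene that was called turned its direction under 3 other scalings. By their brightest probes, the genes not called by the F-test were Wnt3a, Wnt9b, Fzd3, Lef1 and Tcf7l2.

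**Figure D3:**
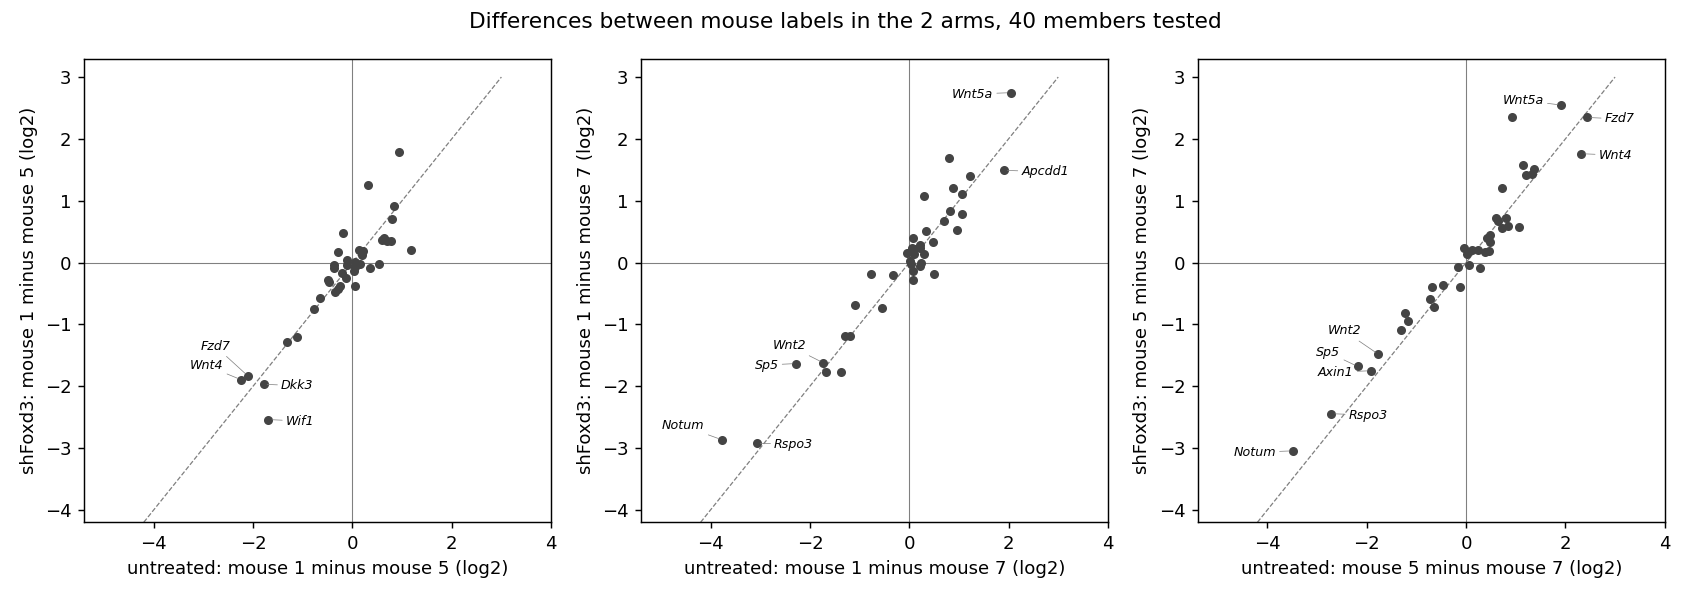
Differences between mouse labels (normalised log2, offset 16) of the 40 pathway genes tested in untreated cells (horizontal axes) and in shFoxd3 cells (vertical axes), 1 panel for each pair of labels, with the dashed line marking equal differences and the genes farthest from 0 named. Genes far from 0 in the untreated arm, such as Notum, Rspo3, Fzd7 and Wnt5a, lie on the same side in the shFoxd3 arm.

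Among the ligands, 6 of the 8 tested differed between untreated labels, where 73.6% of all probes did. Wnt4, which acts in kidney and gonad development, had signals of 154, 168 and 134 in mouse 5, against 23.6, 23.2 and 16.2 in mouse 1 and 21.9, 16.8 and 20.3 in mouse 7. Mouse 5 stood alone, 4.75-fold above mouse 1 and 4.99-fold above mouse 7 (limma adjusted p = 1.1e-06 and 3.32e-07), while mice 1 and 7 did not differ beyond their spread (difference 0.07 ± 0.27). In the shFoxd3 cells the mouse 5 signals were 173, 212 and 108, again above every array of the other labels.

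Wnt5a, the best known ligand of the beta-catenin independent branch, was high in mice 1 and 5 and low in mouse 7. Its untreated signals were 143, 65.1 and 184 in mouse 1 and 153, 90.4 and 112 in mouse 5. In mouse 7 they were 21.4, 21.1 and 19.5, below all arrays of the other labels. Mouse 1 was 4.12-fold and mouse 5 3.78-fold above mouse 7 (limma adjusted p = 9.79e-06 and 1.62e-05), and a second probe gave differences of 1.04 and 1.03 in the same direction.

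Wnt2 and Wnt5b had the reverse order. Wnt2, a ligand known from lung and from endothelial cells of the liver, had untreated signals of 84.8, 69.4 and 116 in mouse 7. On the arrays of mice 1 and 5 it had 18.8, -1.77 and 6.45 and 14, -2.99 and 13.4, detected on 1 of 3 in each. Mouse 7 was 3.32-fold and 3.40-fold higher (limma adjusted p = 4.94e-05 and 3.2e-05). Wnt5b was higher in mouse 7 by 2.46-fold and 2.25-fold (limma adjusted p = 2.21e-05 and 5.45e-05), with no overlap. The paralogues Wnt5a and Wnt5b were thus lowest and highest, respectively, in mouse 7. Endothelial markers had a summed signal of 8 genes of 784 to 885 in untreated mouse 7, 2777 to 3358 in mouse 1 and 2435 to 3697 in mouse 5, and their part in the Wnt2 values was not tested. Wnt16 and Wnt7b, both outside the rule for named genes, were dim and highest in mouse 5, at 20.5 ± 4.70 and 21.3 ± 11.4, and the 11 ligand genes not tested (Wnt1, Wnt2b, Wnt3, Wnt6, Wnt7a, Wnt8a, Wnt8b, Wnt9a, Wnt10a, Wnt10b and Wnt11) had signals below 23 on all arrays.

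**Figure D4:**
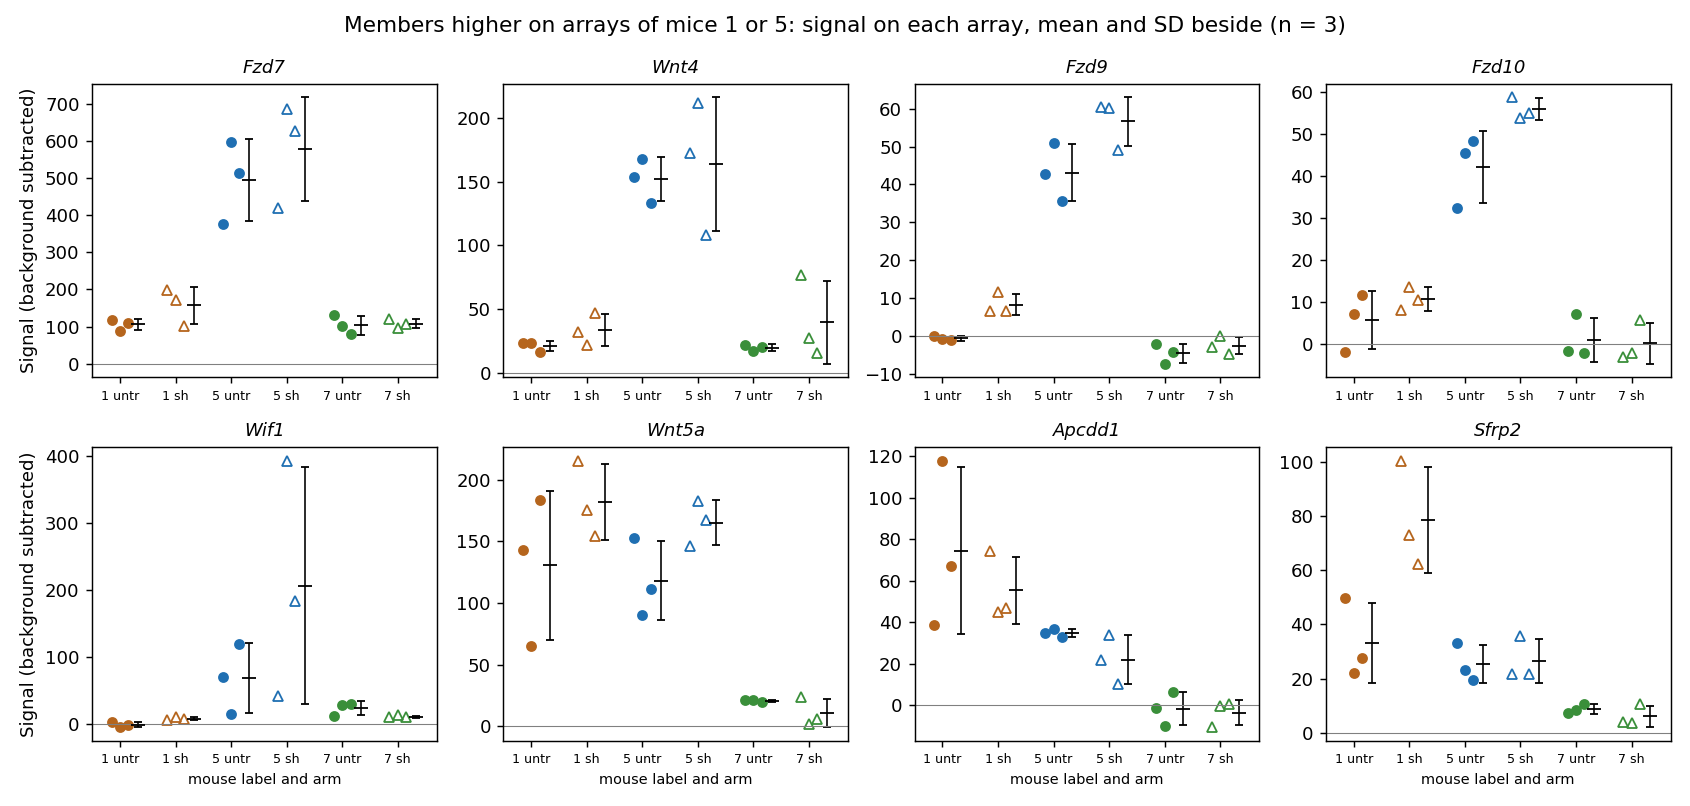
Background-subtracted signal of 8 pathway genes on each array, 6 groups per panel ordered by mouse label (1, 5, 7) and arm (untr, untreated; sh, shFoxd3), with the mean and SD over 3 arrays beside the points. Fzd7, Wnt4, Fzd9, Fzd10 and Wif1 have their highest means in mouse 5, Wnt5a is high in mice 1 and 5, and Apcdd1 and Sfrp2 are highest in mouse 1.

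Of the 12 receptor genes, 11 differed between untreated labels, where 73.6% of all probes did. Fzd7, Fzd9, Fzd10 and the dimmer Fzd2 set mouse 5 apart. Fzd7, a receptor that stem cells of the intestine use, had signals of 377, 597 and 512 in mouse 5. In mouse 1 it had 119, 89.3 and 110.1 and in mouse 7 131, 100.3 and 79.6, so mouse 5 did not overlap with either. The difference was 4.31-fold over mouse 1 and 5.43-fold over mouse 7 (limma adjusted p = 1.11e-07 and 6.02e-09). Mice 1 and 7 did not differ beyond their spread (difference 0.33 ± 0.21).

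Fzd9 and Fzd10 followed the same order at lower signals. Fzd9 had 42.8, 50.8 and 35.7 in untreated mouse 5 and was detected on 0 of 3 untreated arrays of either other label, which gives folds of at least 2.0-fold and at least 1.87-fold. Fzd10 had 32.5, 45.6 and 48.4 in mouse 5, 2.16-fold above mouse 1 and at least 1.83-fold above mouse 7 (limma adjusted p = 2.91e-05 and 5.35e-06). Skeletal muscle markers set the same label apart, with a summed signal of 9 genes of 172143 to 210975 in untreated mouse 5, 77.7 to 18804 in mouse 1 and 3.86 to 17.7 in mouse 7. The part of muscle RNA in these values was not tested.

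Fzd5, known in the gut for its role in Paneth cells, was highest in mouse 7, at 212, 199 and 185. It stood at 31.5, 95.3 and 54.2 in mouse 5 and 73.1, 135 and 93.0 in mouse 1. Mouse 7 lay 2.50-fold above mouse 5 (limma adjusted p = 7.64e-05), whereas the difference between mice 1 and 7 was -0.54 ± 0.24 (limma adjusted p = 0.0586), and without normalisation between arrays -0.92 (limma adjusted p = 0.0106). The co-receptor Lrp5 was also highest in mouse 7, at 55.7 ± 5.59, or 2.28-fold above mouse 1 and 2.36-fold above mouse 5. Its partner Lrp6 was highest in mouse 1, at 48.2 ± 13.9 against 11.6 ± 9.36 in mouse 5, or 2.25-fold higher, though a second Lrp6 probe did not pass (difference 0.25, limma adjusted p = 0.393).

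Other Frizzled genes were low in mouse 7. Fzd4 had 31.9 ± 8.41 in mouse 1 and 27.4 ± 6.99 in mouse 5 and was detected on 0 of 3 untreated arrays of mouse 7, for folds of at least 1.55-fold and at least 1.34-fold. Its second probe was detected on 4 of the 6 arrays of mouse 7 and did not differ past the threshold. Fzd6 had 43.1 ± 17.6 and 54.6 ± 10.4 in mice 1 and 5 and 14.8 ± 1.43 in mouse 7, and its second probe did not pass either. Fzd8 was higher in mouse 1 than in mouse 5 by 1.56-fold (limma adjusted p = 0.0131), a call lost without normalisation between arrays (difference 0.42, limma adjusted p = 0.0859). Fzd1 and Fzd2, dimmer genes outside the rule for named genes, were lowest in mouse 7 as well. Fzd2 was highest in mouse 5, by 1.40-fold over mouse 1 and at least 1.20-fold over mouse 7 (limma adjusted p = 0.0245 and 0.00107).

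All 7 secreted inhibitors tested differed between untreated labels, where 73.6% of all probes did. The largest difference among the 40 genes was that of Notum. Its untreated signals were 399.8, 385 and 361 in mouse 7, 2.36, -2.43 and -4.68 in mouse 1 and 13.9, 18.5 and 0.315 in mouse 5. Mouse 7 was at least 10.8-fold above mouse 1, where no array detected the gene, and 11.1-fold above mouse 5 (limma adjusted p = 1.68e-12 and 4.44e-12). The other 2 probes of Notum also had their highest mean in mouse 7.

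**Figure D5:**
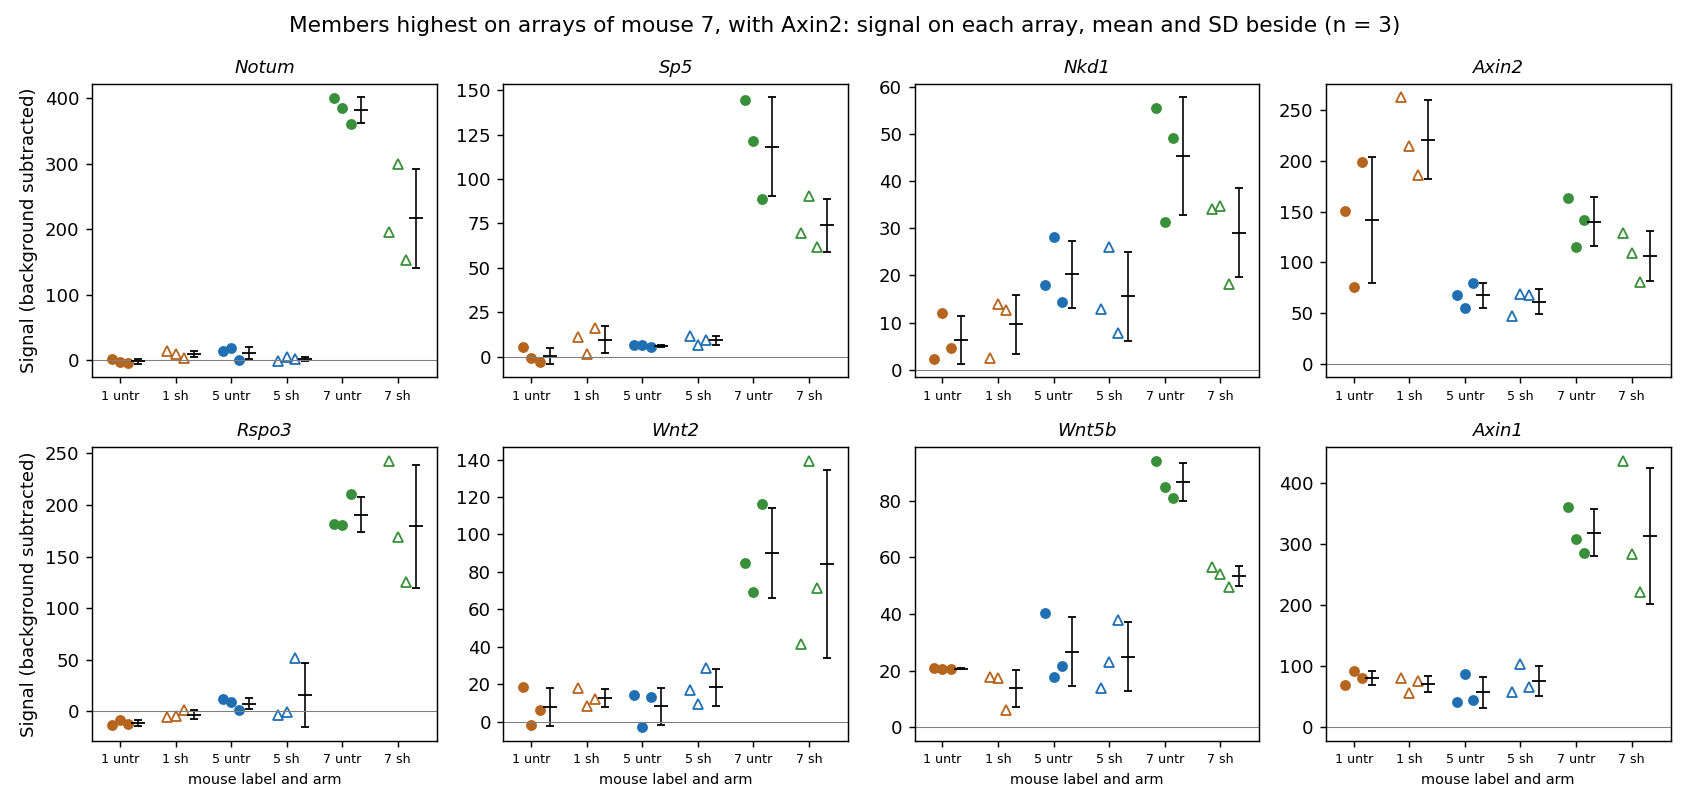
Background-subtracted signal of 8 pathway genes on each array, 6 groups per panel ordered by mouse label (1, 5, 7) and arm (untr, untreated; sh, shFoxd3), with the mean and SD over 3 arrays beside the points. Notum, Sp5, Nkd1, Rspo3, Wnt2, Wnt5b and Axin1 have their highest means in mouse 7, whereas Axin2 is at least as high in mouse 1 as in mouse 7.

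Dkk3 was high in mice 5 and 7 and low in mouse 1. The untreated signals were 22.5, 25.9 and 25.8 in mouse 1, 95.4, 113 and 156 in mouse 5 and 188, 88.3 and 149 in mouse 7. Mouse 1 did not overlap with the others and was lower by 3.45-fold and 3.2-fold (limma adjusted p = 0.000147 and 0.000191). The Dickkopf genes that block Lrp5 and Lrp6, Dkk1, Dkk2 and Dkk4, were detected on 0 of 18 arrays. Wif1, a secreted protein that binds Wnts, was highest in mouse 5 but scattered, with 70.2, 15.6 and 119.9 on the untreated arrays and 42.1, 392 and 183 on the shFoxd3 arrays. Its range within that label exceeded the change of 1.05 ± 0.50 between the arms (limma adjusted p = 0.464).

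The Sfrp genes split the labels in another way. Sfrp1 had untreated signals of 52.9, 25.8 and 43.7 in mouse 1 and 34.2, 45.3 and 17.6 in mouse 5, against 5.39, -1.66 and 16.1 in mouse 7. Mice 1 and 5 were 2.09-fold and 1.65-fold higher (limma adjusted p = 0.000359 and 0.00733), although a second, dimmer probe did not pass. Sfrp2 was detected on every array of mice 1 and 5 and on none of mouse 7, with untreated mouse 1 at least 1.58-fold and mouse 5 at least 1.27-fold higher. Sfrp5 was highest in mouse 5, at 33.1 ± 24.9, and Sfrp4, outside the rule for named genes, was dim in all labels. Fibroblast markers were detected in all labels, with summed signals in untreated cells of 7530.4 to 9577, 14113 to 27302 and 8337 to 11962 in mice 1, 5 and 7.

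In the R-spondin axis both tested genes differed, in opposite directions, where 73.6% of all probes differed. Rspo3, a secreted ligand of Lgr receptors that strengthens Wnt signalling, had untreated signals of 181, 181 and 210.3 in mouse 7. It was detected on 0 of 3 untreated arrays of mice 1 and 5, with -12.9, -8.00 and -12.2 and 12, 9.41 and 1.38. Mouse 7 was therefore at least 5.97-fold and at least 5.75-fold higher (limma adjusted p = 3.87e-09 and 1.59e-08). A second Rspo3 probe disagreed, being detected on 5 of 6 arrays of mouse 5 and 1 of 6 of mouse 7, with means of 23.6 and 6.42 over the 6 arrays. Rspo4 was detected on all 3 untreated arrays of mouse 1, at 21.3, 21.6 and 21.4, and on 0 of mouse 7. Rspo1, Rspo2, the receptor Lgr4 and the brightest probes of the ligases Rnf43 and Znrf3 were detected on 0 of 18 arrays. A second Rnf43 probe was detected on 4 of 6 arrays of mouse 7 and differed between untreated labels (mouse 1 minus mouse 7 -0.77, limma adjusted p = 3.42e-06).

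All 4 genes of beta-catenin and its destruction complex differed between labels, against the same 73.6% of all probes. Axin1, the scaffold of the complex, had untreated signals of 361, 309 and 285 in mouse 7. In mice 1 and 5 it had 69.4, 91.5 and 80.9 and 40.7, 86.7 and 45.2, all below mouse 7. The differences were 2.61-fold and 3.76-fold (limma adjusted p = 2.43e-06 and 2.3e-08). A second, dimmer Axin1 probe had its highest mean in mouse 1 and did not pass between mice 1 and 7 (difference -0.11, limma adjusted p = 0.479). Axin2 had a different order, with 151, 75.4 and 199 in mouse 1, 67.8, 55.3 and 80.0 in mouse 5 and 163, 115 and 142 in mouse 7. It was lowest in mouse 5, by 1.93-fold against mouse 1 and 1.57-fold against mouse 7 (limma adjusted p = 0.00755 and 0.0429), and mice 1 and 7 did not differ beyond their spread.

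Ctnnb1 itself had untreated signals of 2449.8, 1858 and 2149 in mouse 1, 2296, 2672 and 2517 in mouse 5 and 1784, 1473 and 1557 in mouse 7. Every array of mouse 7 was below every array of the other labels. On the normalised scale mice 1 and 5 were 2.32-fold and 2.51-fold above mouse 7 (limma adjusted p = 3.81e-07 and 8.45e-08). Without normalisation between arrays those log2 differences shrank from 1.21 to 0.42 (limma adjusted p = 0.0962) and from 1.33 to 0.63 (adjusted p = 0.0109). Of the other 3 Ctnnb1 probes, 2 passed in the same direction, and the dimmest was lower in mouse 5 than in mouse 7 (difference -0.43, limma adjusted p = 0.0324) although it did not pass the F-test. Apc was dim, with 26.5 ± 7.86, 7.44 ± 8.12 and 20.5 ± 4.08 in mice 1, 5 and 7, and this probe was detected on 0 of 6 arrays of mouse 5. A pair of dimmer Apc probes were each detected on 2 of 6 arrays of mouse 5, where they had their highest means (10.7 and 11.4), and did not pass the F-test. The position of the Apc probe against the floxed part of the gene was not determined, so its signal does not check the allele.

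Of the nuclear factors 1 of 3 differed, against 73.6% of all probes. Tcf7l1, which mostly represses targets in the absence of the signal, had untreated signals of 316, 308 and 372 in mouse 1, 152, 209 and 257 in mouse 5 and 283, 231 and 294 in mouse 7. Mouse 1 was higher by 1.75-fold and 1.78-fold on the normalised scale, but without normalisation between arrays the difference from mouse 7 was 0.29 and no longer passed. Tcf7l2, the main partner of beta-catenin in intestinal epithelium, had 139.6 ± 28.5, 128 ± 32.8 and 176 ± 20.1 and did not pass (limma F-test adjusted p = 0.420). Lef1 was near background, at 14.1 ± 3.67, 15 ± 1.64 and 4.10 ± 4.72 in mice 1, 5 and 7 (limma F-test adjusted p = 0.0568).

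The 4 feedback genes all differed between labels, against 73.6% of all probes, and they did not share an order. Sp5 had untreated signals of 144, 122 and 88.9 in mouse 7, 5.49, -0.953 and -3.04 in mouse 1 and 6.30, 6.39 and 5.18 in mouse 5. It was detected on every array of mouse 7 and on no untreated array of mice 1 and 5, and mouse 7 was at least 4.00-fold and at least 3.85-fold higher (limma adjusted p = 7.62e-10 and 9.92e-10). Nkd1 was also highest in mouse 7, at 55.5, 31.4 and 49.2, 2.15-fold above mouse 1 and 1.66-fold above mouse 5 (limma adjusted p = 6.2e-06 and 0.000444). Apcdd1 ran the other way. It had 38.5, 118 and 66.8 in mouse 1, 35.1, 36.9 and 32.9 in mouse 5 and -1.05, -9.84 and 6.19 in mouse 7, where it was not detected, so mouse 1 was at least 2.87-fold and mouse 5 at least 1.6-fold higher. A second Apcdd1 probe had the same order, with differences of 1.49 and 0.69. Nkd2, dim and outside the rule for named genes, was highest in mouse 5. Notum, Sp5 and Nkd1 all had their highest means in mouse 7, where Axin2 was not higher than in mouse 1 and Apcdd1 was not detected. Liver markers set the same label apart, with a summed signal of 10 genes of 84576 to 102614 in untreated mouse 7 against 555 to 1029 in mouse 1 and 157.2 to 248 in mouse 5, and the part of liver RNA was not tested.

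The promoters of Sp5 and Nkd1, which were highest in mouse 7, of Axin2, which was not, and of Fzd7, highest in mouse 5, were searched for the core of the Tcf and Lef binding motif. The letters searched on both strands were CTTTG followed by a pair of letters that are each A or T, and no other motif was searched. RefSeq promoters of the build GRCm38.p6 were used, 250 bases before to 50 after each start, and lie on the plus strand at chr2:70474673-70474972 for Sp5, chr8:88527383-88527682 for Nkd1, chr11:108920099-108920398 for Axin2 and chr1:59481897-59482196 for Fzd7. Matches are in capitals.
Sp5: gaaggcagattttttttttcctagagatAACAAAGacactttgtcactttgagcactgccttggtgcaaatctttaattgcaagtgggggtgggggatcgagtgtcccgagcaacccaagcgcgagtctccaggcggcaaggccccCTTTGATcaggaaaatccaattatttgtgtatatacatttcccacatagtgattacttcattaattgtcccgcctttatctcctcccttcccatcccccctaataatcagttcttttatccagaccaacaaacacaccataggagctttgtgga
Nkd1: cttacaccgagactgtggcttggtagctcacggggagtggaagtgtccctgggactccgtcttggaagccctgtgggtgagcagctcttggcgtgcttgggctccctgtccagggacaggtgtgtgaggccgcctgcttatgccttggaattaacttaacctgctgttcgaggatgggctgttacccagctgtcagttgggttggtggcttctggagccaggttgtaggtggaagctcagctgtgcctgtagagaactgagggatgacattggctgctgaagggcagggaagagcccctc
Axin2: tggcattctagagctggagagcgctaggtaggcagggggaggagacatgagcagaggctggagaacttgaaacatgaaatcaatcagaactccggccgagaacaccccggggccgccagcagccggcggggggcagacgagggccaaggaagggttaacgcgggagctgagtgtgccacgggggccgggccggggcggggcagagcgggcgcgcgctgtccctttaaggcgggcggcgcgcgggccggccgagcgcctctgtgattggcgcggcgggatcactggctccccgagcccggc
Fzd7: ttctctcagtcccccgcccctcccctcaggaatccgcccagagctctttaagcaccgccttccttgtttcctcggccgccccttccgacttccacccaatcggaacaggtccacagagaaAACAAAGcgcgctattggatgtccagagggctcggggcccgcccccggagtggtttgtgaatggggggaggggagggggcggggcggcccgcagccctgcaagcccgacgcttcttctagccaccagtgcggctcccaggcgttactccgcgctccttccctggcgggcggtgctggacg
Sp5 held 2 matches, 1 on the minus strand, read here as AACAAAG, at 222 bases before the start, and the other on the plus strand, CTTTGAT, at 104 bases before it. Fzd7 held 1, AACAAAG at 130 bases before the start, and the windows of Nkd1 and Axin2 held none of these letters. Of all 32851 promoters of the same length 16.9% held a match, and of the 47 promoters found for 38 of the 59 genes 17.0% did. A match describes the sequence and is not a bound site.

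Other genes of the pathway were read from 3 lists of textbook members. Among 37 tested transducers and modulators (Dishevelled and kinase genes, receptors such as Ror2, and glypicans), 0 rose and 1 fell with the shRNA across labels. The fall was that of Lgr5, a stem cell receptor whose probe had irregular printed values. Among 20 target genes, 1 rose and 1 fell, Birc5 and again Lgr5, both with irregular values. Among 21 genes of the planar polarity and calcium branch, 0 rose and 0 fell. Their median changes across labels were -0.03, -0.02 and 0.02.

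Within labels a few genes of these lists passed. Camk2a, a calcium-dependent kinase, rose in mouse 1 from 9.81 ± 12.1 to 45.1 ± 11.5 (change 0.95 ± 0.20, limma adjusted p = 0.0264). Skeletal muscle markers differed between the same arms, as given above for Sfrp2. Gpc3, a glypican that binds Wnt at the cell surface, rose in mouse 1 from 247 ± 49.4 to 513 ± 130.2 (change 0.86 ± 0.19, limma adjusted p = 0.0438). The fibroblast marker sum given above for Sfrp2 differed between the same arms, and its part was not tested. Id2, an inhibitor of helix-loop-helix factors, fell in mouse 7 from 3422 ± 611 to 1409 ± 736 (change -1.20 ± 0.26, limma adjusted p = 0.0363). Their changes in the other labels did not pass.

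Between untreated labels, 33 of 37 transducers and modulators, 17 of 20 targets and 18 of 21 genes of the planar polarity and calcium branch differed, against the 73.6% of all probes. Among targets, Cyp1a2 and Cyp2e1, cytochromes of the liver that Wnt signalling controls around the central vein, had signals of 11451 ± 1988 and 18096 ± 2383 in mouse 7, against 1.09 ± 5.13 and 723 ± 229.6 in mouse 1 and 5.35 ± 3.49 and 139 ± 87.0 in mouse 5. Cyp2e1 is also on the list of 10 liver markers that set mouse 7 apart above. The part of liver RNA in these target values was not tested. Slc1a2, a glutamate transporter, had 983 ± 145 in mouse 7 and means of -1.82 and 1.33 in mice 1 and 5. Glul, glutamine synthetase, which marks the same zone of the liver, ran the other way, with 60.8 ± 11.8 in mouse 7 against 675 ± 167 in mouse 1 and 329 ± 171 in mouse 5, and was chosen after its values were seen. Among the calcium branch, Camk2a, Camk2g and Camk2b had 592 ± 79.3, 1076 ± 136 and 782 ± 177 in mouse 5, the highest of the labels in each case. Lgr6, a receptor of R-spondins, had 409 ± 87.6 in mouse 1, 20.0 ± 6.55 in mouse 5 and -1.32 ± 1.92 in mouse 7.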

How the data were processed

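The deposited table held, per the file headers, 1 average signal intensity and 1 detection p-value for each probe and array. The scanner software and any background step used by the authors are not given in the sources used here, and signals below 0 show that background had been subtracted. A second deposited table of signal intensity served as an alternative. Probes were named from the platform annotation (34885 with 1 symbol, 18 with several, 10378 with none), and the 59 genes matched RefSeq symbols. Signals were background-corrected with normexp, quantile-normalised and log2-transformed with an offset of 16 (neqc in limma 3.58.1, R 4.3.3, with statmod 1.5.0). The test covered 24817 probes, those that 3 or more arrays detected at a threshold of 0.05. Contrasts used lmFit and eBayes with a mean trend, on 6 group means over 18 arrays or on the 6 profiles, with Benjamini-Hochberg adjustment and a threshold of 0.05, two-sided. The array numbers were not taken as pairs in the main fits. The correlation of deviations between same-numbered arrays ran from -0.084 to 0.3, with a median of 0.026 against -0.015 for other numbers. However, 14 of 18 arrays correlated best with an array of their own number, and a replicate block was run as an alternative. In simulated data with known changes of 1 log2 unit, the mouse 1 contrast recovered 67%, the contrast across labels 92% and the interaction test 42%. The simulated noise was independent between arrays, and for the contrast across labels the change was equal in every label. These shares therefore do not measure recovery where a change varies between labels. Genes were named with values where detected on all 3 arrays of a group, at most 30 by mean signal, together with Axin2, Ctnnb1, Apc and Lef1. The rule for each further list was up to 4 genes, those called in an shRNA test first. More target genes than that were named, and Glul and Ccnd1 were added after their values were seen. A further allele that all groups shared is not reported here. The genes and lists were chosen with earlier results of these data known. Alternatives changed the background correction, normalisation, filter, probe, array weights, pairing, value table, irregular probes and arrays left out. The number of arrays limits the precision.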

Additional observations from a re-analysis of the deposited data

Results flagged for a closer look

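Fzd3, a Frizzled receptor chosen after its values were seen, had every shFoxd3 array above every untreated array in mouse 1 and every shFoxd3 array below every untreated array in mouse 5. In mouse 1 the signals were 13.2, 18.6 and 23.4 with the shRNA and 7.05, 8.29 and 2.93 without it. In mouse 5 they were -1.71, -3.22 and 6.35 with the shRNA and 16.3, 17.6 and 9.84 without it. The limma test of a difference among the 3 labels gave an adjusted p of 0.1376, which did not pass, and the gene was detected on 4 of 18 arrays.

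Notum had all shFoxd3 arrays below all untreated arrays in mouse 7 and the reverse order in mouse 1, where the signals were near background. The limma test of a difference among the 3 labels gave an adjusted p of 0.3, and mice 1 and 7 alone were not tested against each other. In mouse 7 the summed signal of the liver markers was 76673 to 86924 with the shRNA and 84576 to 102614 without it, and their part in the difference was not tested.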

How the results depend on the processing

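Of 282 recomputed counts of called pathway genes, 274 stayed within 1.5 times of the reported count, and 8 did not. In mouse 1 the shRNA count moved from 0 to 1, Sfrp2, without normalisation between arrays (change 0.98, limma adjusted p = 0.0177; an alternative chosen after seeing the data), with array weights (limma adjusted p = 0.0156) and with the array number as a replicate block (limma adjusted p = 0.0446). No pairing was taken from the labels, and 14 of 18 arrays correlated best with an array of their own number. The replicate block gave 35 genes for the F-test and 19, 21 and 31 for the pairs of labels. Leaving out arrays, one number or one array at a time (single arrays chosen after seeing the data), gave 0 to 2 genes in mouse 1, 0 to 1 in mouse 7, and 10 to 20 between untreated mice 1 and 5, against 19. The 2 in mouse 1 were Apc and Sfrp2, without shFoxd3 array 3, and the lows of 10 and 11 came without array number 1 or 3 in all groups. The deposited second table gave 33 genes for the F-test and 14 between mice 1 and 5. Across labels the count was 0 under every alternative run. Of 558 recomputed single changes, 551 kept their sign without a call, 6 were called and 1 turned sign, Sfrp1 in mouse 5 with its other probe (-0.035, against 0.49). The cause of these shifts was not tested. Between untreated labels, normalisation between arrays also decided the calls of Apc, Axin1, Fzd1, Fzd5 and Fzd8 for mice 1 and 5, of Ctnnb1, Lef1 and Tcf7l1 for mice 1 and 7, and of Apc for mice 5 and 7, all lost without it. Dim probes limit the rest, since the brightest probes of 19 of the 59 genes were detected on fewer than 3 arrays.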

Other observations

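Probes of 1 gene did not always show the same pattern, and these values were chosen after they were seen. A second probe of Tcf7l2 had means over 6 arrays of 39.8, 46.8 and 6.07 in mice 1, 5 and 7, low in mouse 7, whereas the brightest probe did not differ between labels past the threshold. A second probe of the ligase gene Rnf43 was detected on 4 of 6 arrays of mouse 7, with means of -5.94, -9.28 and 15.8 in mice 1, 5 and 7, although its brightest probe was detected on 0 of 18 arrays. A second, dimmer probe of Lrp5 and of Nkd1 did not pass between mice 1 and 7 (differences -0.08 and -0.05), nor did one of Fzd5 between mice 5 and 7 (-0.18). The second Rspo3 probe, high in mouse 5 rather than mouse 7, is of the same kind. For Notum, Dkk3, Wnt4, Wnt5a and Apcdd1, a second probe had the same highest or lowest label as the brightest.

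Ccnd1, the gene of cyclin D1 and a textbook Wnt target in colon cells, was named after its values were seen. It had mean untreated signals of 114 in mouse 1, 132 in mouse 5 and 4946 in mouse 7. Prkca, a kinase of the calcium branch, was highest in mouse 5.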
